A study of Mus musculus with 11 samples.

Results

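The windows described here are the listed 500-bp stretches of the mouse genome that lie within 50 kb of a transcription start site. The study measured DNA methylation in the suprachiasmatic nucleus, or SCN, the hypothalamic nucleus that acts as the central circadian clock of mammals. Its method, MeDIP-seq, sequences the DNA fragments that an antibody to methylated cytosine pulls down. The authors deposited 4 lists of windows that differ between cycle lengths, each naming the nearest gene and the distance to its start. A window was taken when that distance was at most 50 kb. Mitochondrial windows and those named after Sfi1, Pisd-ps3, Pisd-ps2 and Col19a1 were left out. This kept 470 of 1239 listings, which are 446 distinct windows named after 332 genes. Another 640 listings lay farther away and 129 were left out.

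All mice were wild-type C57BL/6Cr1, 6 weeks old at the start, and lived for 6 weeks under a light-dark cycle that lasted 22, 24 or 26 h. They then spent 3 days in constant darkness. Tissue was taken at circadian time 4, at postnatal day 90, from a slice of about 250 µm in which a knife parted the ventral from the dorsal SCN. Such pieces can hold tissue that borders the SCN, and the lists carry no cell type markers by which to check them. The labels give 11 samples: 2 each for ventral SCN at 22, 24 and 26 h and for dorsal SCN at 22 and 26 h, and 1 for dorsal SCN at 24 h. Each list has 1 column of RPKM (reads scaled to window length and to all reads of the column) per cycle length, so the spread between mice is not visible and no difference below was tested over animals. Ratios carry exact 95% binomial intervals (Clopper-Pearson) from the reads recovered from the RPKM, which cover counting error only. In the order 22, 24 and 26 h, recovered depth was about 8170000, 5230000 and 9430000 reads for the ventral columns and 5720000, 4580000 and 5770000 for the dorsal ones.

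In mammals DNA methylation sits mostly on the cytosine of CpG dinucleotides. Promoters that are rich in CpG are usually unmethylated, while gene bodies and transposable elements such as LINE-1 are usually methylated. The ventral SCN holds neurons that receive light input from the retina, and the dorsal SCN holds neurons that take their timing largely from the ventral part. A MeDIP window gains reads both with methylation and with the number of CpGs and genome copies that map to it, and these cannot be told apart in a single window.

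The sequences below, read from the mm9 genome on the plus strand 5′ to 3′, show the kinds of window that the lists hold. The first 4 are windows at start sites or in coding exons that were higher at 24 h in the ventral SCN, with CG in capitals.

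Cartpt, chr13:100671521-100671720: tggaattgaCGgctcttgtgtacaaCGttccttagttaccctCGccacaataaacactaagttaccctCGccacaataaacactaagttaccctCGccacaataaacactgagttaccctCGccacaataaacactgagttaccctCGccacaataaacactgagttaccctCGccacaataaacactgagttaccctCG
Tbata, chr10:60636138-60636337: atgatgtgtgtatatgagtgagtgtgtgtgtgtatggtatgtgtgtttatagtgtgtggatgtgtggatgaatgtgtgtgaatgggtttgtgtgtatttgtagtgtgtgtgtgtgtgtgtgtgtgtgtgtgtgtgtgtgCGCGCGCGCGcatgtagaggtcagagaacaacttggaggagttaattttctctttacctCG
Kctd15, chr7:35435614-35435813: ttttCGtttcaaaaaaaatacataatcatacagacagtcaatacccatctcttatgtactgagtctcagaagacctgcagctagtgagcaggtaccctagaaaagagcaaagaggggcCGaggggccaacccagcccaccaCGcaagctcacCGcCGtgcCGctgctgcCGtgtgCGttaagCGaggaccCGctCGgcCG
Rtn4rl2, chr2:84720552-84720751: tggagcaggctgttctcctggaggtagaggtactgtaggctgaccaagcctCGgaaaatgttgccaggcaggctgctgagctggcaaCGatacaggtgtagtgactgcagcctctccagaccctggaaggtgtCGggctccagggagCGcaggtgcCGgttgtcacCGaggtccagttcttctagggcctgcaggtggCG

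The next 2 come from windows with some of the largest ratios in the same direction. They are built from a short unit with few CpGs, and the capitals mark a 10-base word that recurs.

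Mir153, chr12:118478001-118478200: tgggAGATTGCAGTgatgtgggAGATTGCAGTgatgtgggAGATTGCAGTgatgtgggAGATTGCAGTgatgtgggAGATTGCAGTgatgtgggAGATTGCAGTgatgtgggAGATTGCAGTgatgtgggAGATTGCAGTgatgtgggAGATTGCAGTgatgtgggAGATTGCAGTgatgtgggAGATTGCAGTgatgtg
Adam18, chr8:25750661-25750860: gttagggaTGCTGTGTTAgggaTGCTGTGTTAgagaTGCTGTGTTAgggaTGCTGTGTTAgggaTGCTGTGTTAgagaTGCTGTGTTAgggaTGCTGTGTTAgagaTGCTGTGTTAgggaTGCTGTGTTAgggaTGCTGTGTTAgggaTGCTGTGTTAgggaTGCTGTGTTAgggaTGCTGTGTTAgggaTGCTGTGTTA

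In the marked stretches the word AGATTGCAGT occurs 11 times near Mir153 and TGCTGTGTTA 14 times in Adam18. The following 3 stretches lay in windows lower at 24 h than at 22 h in the ventral SCN and show the CpG-dense sequence common there, with CG in capitals.

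Nudt12, chr17:59184566-59184765: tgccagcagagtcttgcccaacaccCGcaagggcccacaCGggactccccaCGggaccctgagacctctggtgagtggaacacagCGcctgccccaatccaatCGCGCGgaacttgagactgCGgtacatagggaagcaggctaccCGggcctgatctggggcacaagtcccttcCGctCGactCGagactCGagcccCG
Wapal, chr14:35522501-35522700: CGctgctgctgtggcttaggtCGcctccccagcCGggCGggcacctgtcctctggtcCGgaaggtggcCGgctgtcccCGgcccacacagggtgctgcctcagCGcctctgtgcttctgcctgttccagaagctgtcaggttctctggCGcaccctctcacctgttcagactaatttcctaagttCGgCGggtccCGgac
Hrnr, chr3:93095001-93095200: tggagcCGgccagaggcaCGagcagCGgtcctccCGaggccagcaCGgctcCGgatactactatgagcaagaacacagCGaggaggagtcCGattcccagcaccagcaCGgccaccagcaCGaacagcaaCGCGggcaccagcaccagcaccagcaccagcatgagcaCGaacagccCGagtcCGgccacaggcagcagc

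The last 4 come from the other comparisons, again with CG in capitals: Drosha from ventral 24 h against 26 h, and the D17Wsu104e, Dpep1 and Rcan1 windows from dorsal 24 h against 26 h.

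Drosha, chr15:12764200-12764399: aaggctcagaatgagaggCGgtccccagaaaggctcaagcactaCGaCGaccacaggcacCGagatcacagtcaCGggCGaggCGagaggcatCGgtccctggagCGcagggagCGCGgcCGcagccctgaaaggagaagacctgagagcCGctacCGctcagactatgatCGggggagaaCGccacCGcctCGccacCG
D17Wsu104e, chr17:56339153-56339352: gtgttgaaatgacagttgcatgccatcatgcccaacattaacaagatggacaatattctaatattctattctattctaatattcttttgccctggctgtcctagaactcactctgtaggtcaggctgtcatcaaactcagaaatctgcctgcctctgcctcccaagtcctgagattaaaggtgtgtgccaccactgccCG
Dpep1, chr8:125711001-125711200: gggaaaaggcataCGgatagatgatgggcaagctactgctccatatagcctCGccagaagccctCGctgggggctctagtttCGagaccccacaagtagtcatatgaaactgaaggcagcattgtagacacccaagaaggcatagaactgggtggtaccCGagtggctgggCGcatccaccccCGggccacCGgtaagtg
Rcan1, chr16:92434598-92434797: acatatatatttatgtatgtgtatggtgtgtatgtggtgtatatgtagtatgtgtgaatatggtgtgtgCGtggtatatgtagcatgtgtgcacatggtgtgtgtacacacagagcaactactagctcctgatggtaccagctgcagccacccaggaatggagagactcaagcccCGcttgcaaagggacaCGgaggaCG

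Windows within 50 kb of a start site were 315 of 812 (38.8%) for ventral 24 h against 22 h and 65 of 217 (29.95%) for ventral 24 h against 26 h. In the dorsal lists they were 58 of 131 (44.3%) against 22 h and 32 of 79 (40.5%) against 26 h. These totals include the windows left out by the rule. Beyond 50 kb lay 495, 42, 60 and 43 windows in the same order. The left-out windows thus weigh most in the ventral list against 26 h. The windows within 50 kb named 260, 32, 37 and 25 genes in that order. Position within genes was taken from GENCODE M1, with a window called promoter when it lay within 1000 bp of any annotated start. Of the 470 listings 41 were promoter windows, 9 lay in other exons, 171 in introns and 249 between genes. Blocks of neighbouring windows weigh on the promoter count. In the dorsal list against 22 h, the 5 higher promoter windows are all named Mir101c, and the 8 lower ones carry 2 names, of which 1 is Gad2. The 7 lower promoter windows of the ventral list against 26 h also carry 2 names, of which 1 is Gad2. Named genes were matched to GENCODE M1 by symbol. By this match 104 listings lay in the named gene, 112 only in a gene of another symbol and 254 in none. The named symbol could be placed for 385 of the 470 listings. Another symbol can thus be a second name of the same gene, and such cases were not separated. Of the 41 promoter windows, 8 were at a start of the named symbol. In what follows, the symbol that holds the window is given wherever it differs from the name.

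In the ventral SCN, 112 windows near start sites were higher at 24 h than at 22 h and 203 were lower. Over the whole list 24.3% of windows were higher and 75.7% lower, and the shares at least 2-fold higher and lower were 24.3% and 75.0%. All 315 members differed by at least 2-fold, in a list that the authors selected on this contrast. The higher windows had a median of 10.7 RPKM at 24 h against 2.94 at 22 h, a median fold of 3.64. For the lower ones the medians were 2.29 and 14.2 RPKM, with a median fold of 5.33. Among windows beyond 50 kb, 85 were higher and 410 lower. The share higher at 24 h was thus 35.6% within 50 kb of the named start site and 17.2% beyond it. These shares are a description, since the windows of a list share the same libraries.

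**Figure D1:**
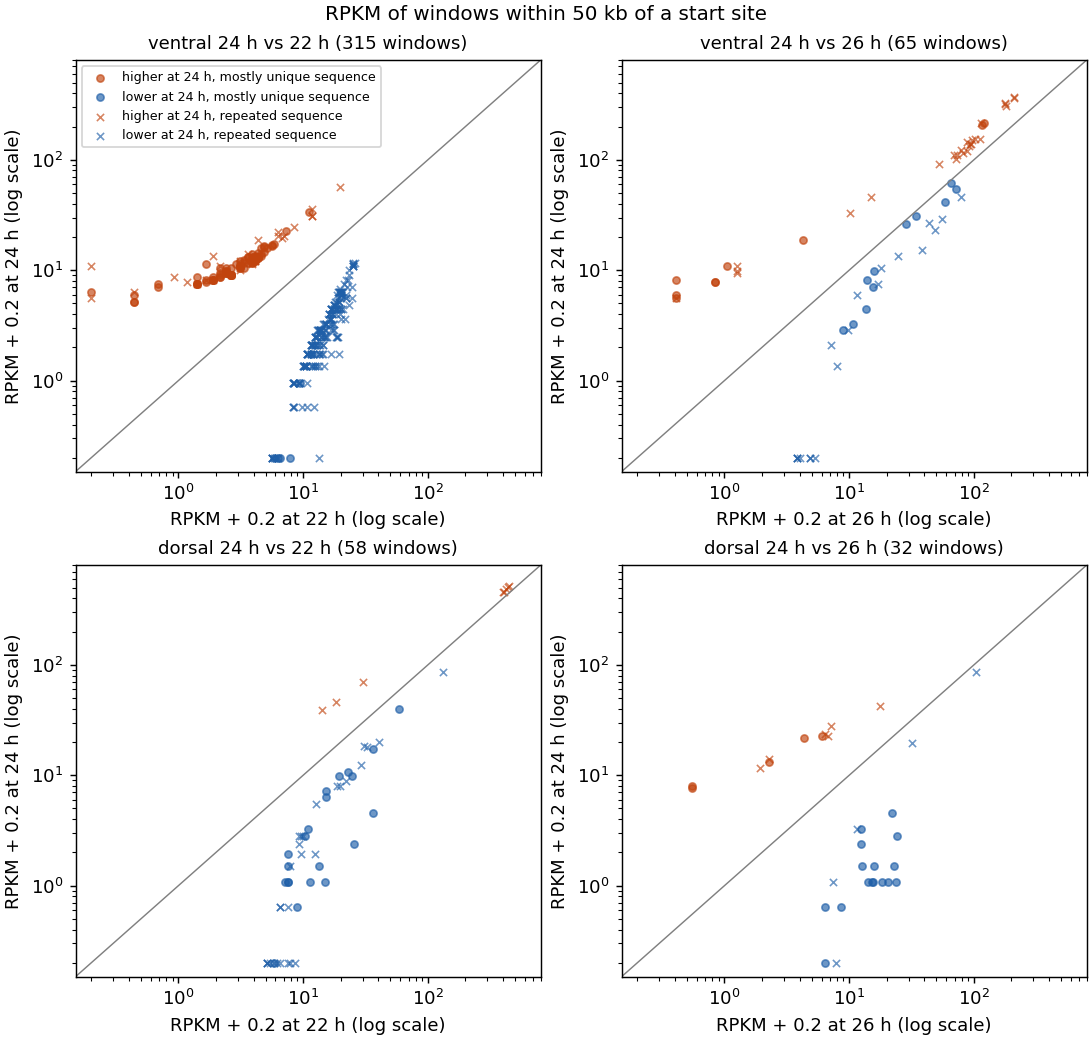
RPKM of each window within 50 kb of a start site at 24 h (vertical) against 22 or 26 h (horizontal), both on log scales after adding 0.2, with 1 panel per list. Points above the line were higher at 24 h, circles are windows of mostly unique sequence and crosses are repeated sequence; in the ventral 24 h against 22 h panel the higher windows are mostly circles and the lower ones nearly all crosses.

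Windows higher and lower at 24 h in this list differed in kind. Sequence is called mostly unique below where 50% or more of the 31-base words of a window have a single place in the genome. That held for 77 of the 112 higher windows (68.8%) and 6 of the 203 lower ones (2.96%). The lower windows were CpG-rich, with a median of 27 CpGs per window against 5 in the higher ones, and 151 of them held 20 CpGs or more against 13 of the higher ones. Features of LINE-1 or LTR retrotransposons were found in or beside 154 of the 203 lower windows (75.9%) and 4 of the 112 higher windows. Short tandem repeats, with units that recur within 100 bp, were found in 44 of the higher windows (39.3%) and 6 of the lower ones. Restricted to mostly unique sequence, the median log2 ratio of the members turned from -2.02 to 1.85. The part that the number of genome copies plays in these ratios was not tested. Lower windows beyond 50 kb were of the same kind, with a median of 29 CpGs and retrotransposon features in 86.1%. LINE-1 reading frames were found beside 37.9% of the lower windows near start sites and 65.4% of those beyond 50 kb, while LTR frames were found beside 34.5% and 17.6%.

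**Figure D2:**
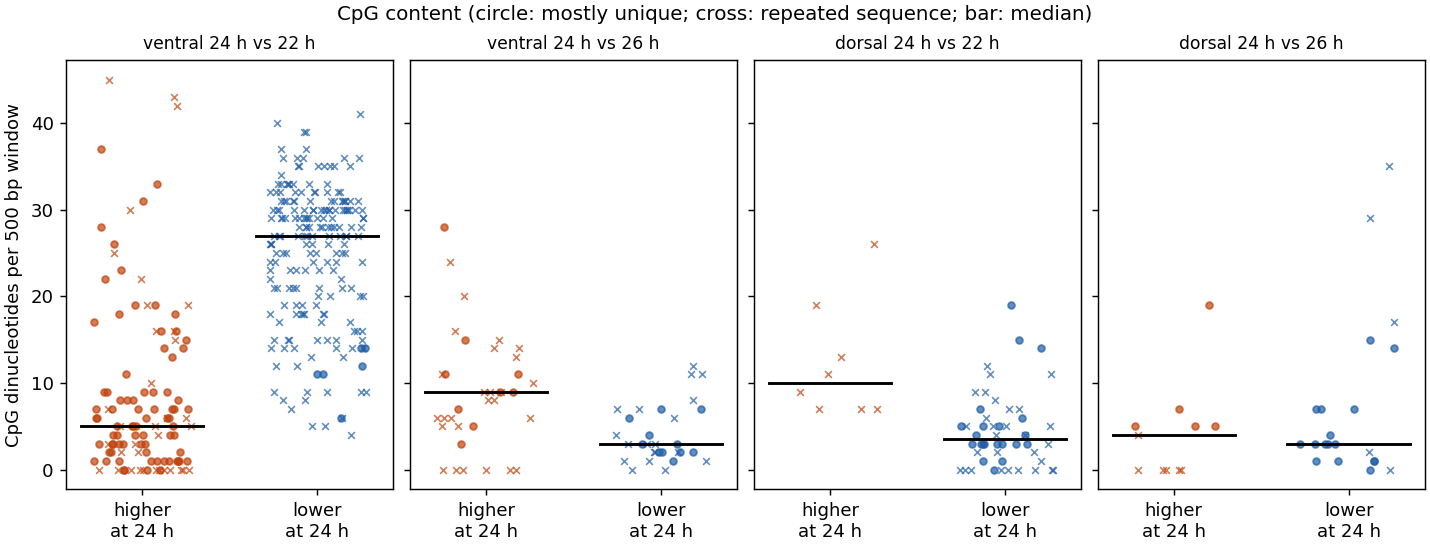
CpG dinucleotides per 500-bp window (vertical) for windows higher or lower at 24 h in each list, with 1 point per window, circles for mostly unique and crosses for repeated sequence, and a bar at the median. The windows lower at 24 h than at 22 h in the ventral SCN have a median of 27 CpGs, and every other group has a median of 10 or less.

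Few of the windows lower at 24 h than at 22 h in the ventral SCN had sequence of their own, and 5 of these 6 bear names of characterised genes. A window 28.6 kb upstream of Pcdh8, a protocadherin of neurons, had 0.76 RPKM at 24 h against 9.30 at 22 h (12.2-fold lower, interval 3.14 to 104.1). A window 46.6 kb upstream of Ppp2r3a, a regulatory subunit of protein phosphatase 2A, had 1.53 and 11.3 RPKM (7.36-fold lower, 2.69 to 28.2). In the promoter of Wapal, which encodes a factor that releases cohesin from chromosomes, no read was found at 24 h and 7.59 RPKM at 22 h. For columns at 0 reads the fold is computed against a floor of 3 reads, by which this window was at least 6.62-fold lower. The Wapal window beside it, over a noncoding exon and made of repeated sequence, had 2.29 and 13.7 RPKM (5.98-fold lower, 2.58 to 16.97). Both Wapal windows lay 35.1 to 35.6 kb downstream of the start the authors name, at an internal start of the gene. The windows named Sgsm3, which lie in an intron of Adsl, a purine synthesis enzyme, and Ccdc71l, between genes, also had 0 reads at 24 h in their unique part and were at least 5.55-fold and at least 5.33-fold lower. The remaining window, named 4921511C20Rik, was at least 4.91-fold lower.

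The largest ratios among the lower windows rested on repeated sequence. Near Nudt12, which encodes a nucleotide hydrolase, 3 neighbouring windows had 0.38 to 1.91 RPKM at 24 h and 11.99 to 19.1 at 22 h, and the first was 31.4-fold lower (5.37 to 1264, on 1 read at 24 h). Windows named after Hrnr lay at the neighbouring gene Flg, and both genes encode repeat-built proteins of the epidermis. They had 0.38 to 2.68 RPKM at 24 h and 10.53 to 13.5 at 22 h (5.03 to 27.5-fold lower). Coding exons of Ahnak2, a very large scaffold protein built of repeats, held 3 windows named Pld4, with 1.15 to 1.91 RPKM at 24 h and 9.79 to 12.2 at 22 h (6.40 to 8.96-fold lower). None of these 9 windows was mostly unique, and all had 26 to 33 CpGs. Olfactory and vomeronasal receptor genes, which form large clusters, gave their names to 15 windows in this list, of which 14 were lower at 24 h. Over the whole list 75.7% of windows were lower, and 64.4% of its members. Of the 203 lower members 6 were mostly unique, so the count is not read as a trait of receptor genes.

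Windows at start sites and in coding exons are few. In the ventral 24 h against 22 h list those of unique sequence were mostly higher at 24 h. The same held for all mostly unique members of that list, 77 of 83 (92.8%), so it does not set start sites and exons apart. The members of this list held 12 promoter windows, 7 higher and 5 lower, and 8 windows in other exons, 6 higher and 2 lower. The Tbata window, in a gene named for its expression in thymus, brain and testis, lay 618 bp from a start and had 7.26 RPKM at 24 h against 1.22 at 22 h (5.94-fold higher, 2.14 to 20.3). Its sequence is a CA/TG-rich stretch with 6 CpGs. At Fam173b, which encodes a mitochondrial lysine methyltransferase, the values were 9.18 and 1.96 RPKM (4.69-fold higher, 2.04 to 12.1). Prpf18, a splicing factor, had 12.6 and 4.16 RPKM in a window 1119 bp upstream of the named start (3.03-fold higher, 1.64 to 5.80). A window over a start of Spata13, a guanine nucleotide exchange factor for small GTPases, is named C1qtnf9 in the list and had 10.7 and 2.94 RPKM (3.64-fold higher, 1.79 to 7.87). The promoter window of Sidt2, a lysosomal membrane protein, is named Mir7087 and had 14.5 and 4.65 RPKM (3.12-fold higher, 1.76 to 5.74).

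The Cartpt gene, which encodes the precursor of the neuropeptide CART, had windows higher at 24 h in both parts of the SCN. In the ventral SCN, chr13:100671501-100672000, 1113 bp upstream of the start, had 56.2 RPKM at 24 h against 19.6 at 22 h (2.87-fold higher, 2.17 to 3.82). In the dorsal SCN the listed window was chr13:100672501-100673000, 2113 bp upstream, with 69.4 and 30.1 RPKM (2.31-fold higher, 1.77 to 3.04). Both windows carry 19 CpGs in a tandem array with a 26-base unit, seen in the sequence above, and 12.8% and 1.06% of their words are unique. Each window was listed for 1 part of the SCN, and its values in the other part were not analysed here.

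Coding exons of 5 genes were higher at 24 h than at 22 h in the ventral SCN. These were chosen after their values were seen. Kctd15, whose protein restrains neural crest formation, had 8.03 RPKM at 24 h against 1.47 at 22 h in a window with 16 CpGs (5.47-fold higher, 2.13 to 16.6). Rtn4rl2, a relative of the Nogo receptor, had 9.18 and 2.20 RPKM with 13 CpGs (4.17-fold higher, 1.87 to 10.2). An exon of Ptprs, a receptor tyrosine phosphatase of neurons, is listed as Mir6977 and had 15.7 and 4.41 RPKM (3.56-fold higher, 2.002 to 6.58). An exon of the matrix protein gene Matn4, listed as Rbpjl, had 33.3 and 11.02 RPKM with 28 CpGs (3.02-fold higher, 2.08 to 4.43). The Faxc window had 16.1 and 4.65 RPKM with 33 CpGs (3.45-fold higher, 1.96 to 6.29). Its coding exon is annotated under the symbol 6230409E13Rik, which is not taken here as a different gene. In all 5 windows at least 51.7% of the words were unique.

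The highest ratios in this list lay in introns and between genes, and several rest on 1 read at 22 h. Adam18, a sperm surface protein gene, had an intronic window with 6.12 RPKM at 24 h against 0.24 at 22 h (24.99-fold higher, 3.88 to 1048). That window has no CpG and consists of the 14-base unit shown above. An intron of A930006I01Rik had 5.74 and 0.24 RPKM (23.4-fold higher, 3.60 to 986), and a window 37.1 kb upstream of Gli2, a transcription factor of the Hedgehog pathway, had 4.97 and 0.24 (20.3-fold higher, 3.05 to 863). A pair of windows named Mir153 in an intron of Ptprn2, a dense-core vesicle protein gene, had 7.26 and 6.88 RPKM at 24 h against 0.49 at 22 h (14.8-fold and 14.1-fold higher). In an intron of Col23a1, a transmembrane collagen gene, the values were 11.1 and 1.47 RPKM (7.55-fold higher, 3.08 to 22.2). Among the 77 higher windows of mostly unique sequence, 37 had at most 5 CpGs and 7 had 20 or more.

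**Figure D3:**
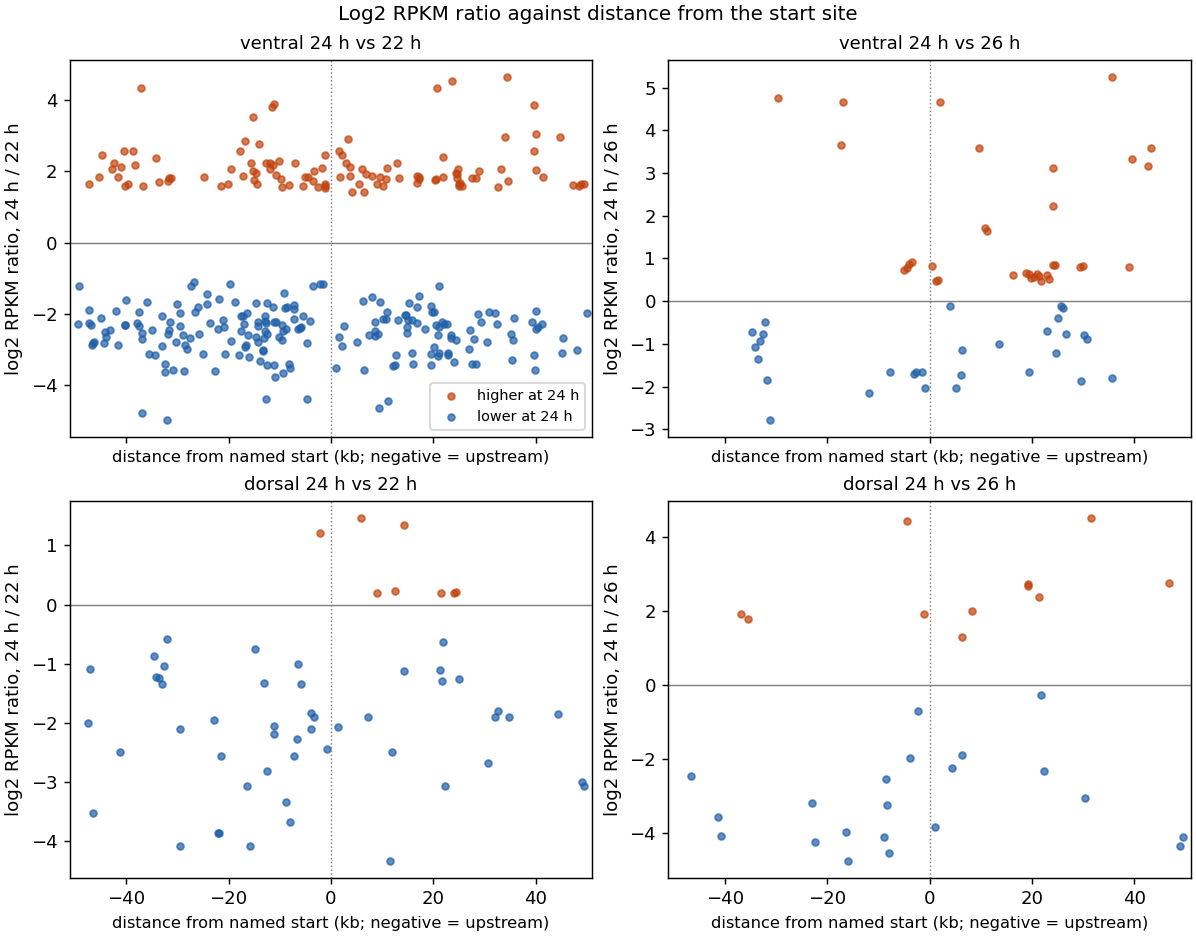
Log2 ratio of RPKM, 24 h over the other cycle length (vertical), against distance from the start site the authors name (horizontal, kb, negative upstream), with 1 point per window and 1 panel per list; a column with 0 reads was set to 3 reads. In the ventral 24 h against 22 h panel 17 of the 26 windows at 1 to 5 kb were higher at 24 h, and farther out the lower windows are the majority.

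In the ventral 24 h against 22 h list, the share of windows higher at 24 h was larger at 1 to 5 kb than farther out. This difference was not tested. Of the 26 windows at 1 to 5 kb, 17 were higher at 24 h (65.4%). The shares were 31.7% of 41 windows at 5 to 10 kb, 31.5% of 89 at 10 to 20 kb and 34.2% of 158 at 20 to 50 kb. A single window lay within 1 kb. Median folds of the higher windows ranged from 3.42 to 4.19 and those of the lower windows from 5.03 to 5.49 over the bins beyond 1 kb, with no order by distance. The other lists had 11 or fewer windows at 1 to 5 kb. There the shares higher were 63.6% (ventral, 26 h), 20% (dorsal, 22 h) and 33.3% (dorsal, 26 h). In the ventral list against 26 h the share was larger still at 10 to 20 kb (72.7% of 11 windows).

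Against 26 h, the ventral members divided into 35 windows higher at 24 h and 30 lower. In the whole list 26.7% were higher and 73.3% lower, and 9.68% and 51.6% were at least 2-fold higher and lower. Windows beyond 50 kb divided like the members, 22 to 20, and most of the lower windows of the whole list are those left out by gene name. With these and the 16 mitochondrial windows kept in, the median log2 ratio turned from 0.50 to -1.19. With mostly unique members alone it was -0.11. The folds were smaller than in the 22 h comparison: of the 65 members 13 were at least 2-fold higher and 17 at least 2-fold lower. The intervals of 3 lower windows included a ratio of 1.

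Abundant repeat blocks made up much of the higher group. Near B020014A21Rik, 9 neighbouring windows had 102.5 to 156 RPKM at 24 h and 68.9 to 102.2 at 26 h (1.43 to 1.59-fold higher). Upstream of Tmem125, 4 windows with a 44-base tandem unit had 146 to 325 and 87.8 to 180 RPKM (1.66 to 1.89-fold higher). At the start of chromosome 9, 4 windows named Mir101c had 91.4 to 370 and 52.4 to 209 RPKM (1.73 to 1.78-fold higher). The first of these, chr9:2999501-3000000, has no base called in the mm9 sequence used here, although the list gives it 91.4 RPKM. With neighbouring windows merged, 22 regions were higher and 17 lower.

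Outside these blocks, larger ratios were found at single windows of unique sequence. Capn9, a calpain protease gene, had, within an intron, 8.03 RPKM at 24 h against 0.21 at 26 h (37.9-fold higher, 6.09 to 1566). A window 29.5 kb upstream of Tex2 had 5.74 and 0.21 RPKM (27.1-fold higher, 4.16 to 1139). The window named Gng13, a G protein gamma subunit, overlaps coding sequence and lies 230 bp from a start of Chtf18, which encodes a clamp loader factor. It had 5.35 and 0.21 RPKM (25.2-fold higher, 3.84 to 1068). Drosha, the nuclear enzyme that cuts primary microRNA transcripts, had 7.65 and 0.64 RPKM over a coding exon 417 bp from an internal start (12.02-fold higher, 3.57 to 63.2). That window holds 28 CpGs, the most among the higher windows of this list, and all of its words are unique. An intron of Nrxn2, a presynaptic adhesion protein gene, is named Slc22a12 and had the same values as Drosha with 11 CpGs. Each of these windows held 3 reads or fewer at 26 h.

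The lower group in the ventral 26 h comparison gathered at a few places. A gene cluster on chromosome 8, from 19717501 to 19925000, held 9 windows named Gm21119, 4930467E23Rik and 6820431F20Rik, all lower at 24 h, with 0 to 13.4 RPKM at 24 h and 3.60 to 24.6 at 26 h. Between 6.60% and 35.1% of the words in these windows were unique. The direction differed in another list: a window named 6820431F20Rik at 19864501 was higher at 24 h than at 22 h in the ventral SCN (authors' log2 fold change 2.05). The window named 4930467E23Rik at 19760001 was also lower at 24 h in the dorsal list against 22 h. Near Ly6c2, 5 neighbouring windows had 7.26 to 60.8 and 13.6 to 71.7 RPKM (1.07 to 2.33-fold lower). An intron of Drg1, named Eif4enif1 in the list, had a pair of windows of mostly unique sequence with 2.68 and 4.21 RPKM at 24 h and 8.69 and 13.4 at 26 h (3.25-fold and 3.18-fold lower).

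Dorsal members were mostly lower at 24 h than at 22 h: 50 were lower and 8 higher. Over the whole list 93.1% were lower and 6.87% higher, and 84.7% and 3.05% were at least 2-fold lower and higher. Beyond 50 kb, 59 were lower and 1 higher. The lower members had medians of 1.75 RPKM at 24 h against 9.62 at 22 h (median fold 4.08), with a median of 3.5 CpGs. Unlike the lower windows of the ventral 22 h comparison, 21 of 50 were mostly unique (42.0%) and 10 carried retrotransposon features. Of the 8 higher members, none was mostly unique.

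An intron of Bbox1, the last enzyme of carnitine synthesis, had 0.44 RPKM at 24 h against 8.74 at 22 h (20.02-fold lower, 3.28 to 822, on 1 read at 24 h). The windows named D17Wsu104e lie in an intron of Dpp9, a dipeptidyl peptidase gene, and had 0.87 RPKM at 24 h in both and 14.7 and 7.34 at 22 h (16.8-fold and 8.41-fold lower). An intron of Lsamp, a neural adhesion protein gene, had 2.62 and 9.44 RPKM (3.60-fold lower, 1.46 to 10.7), in repeated sequence with LINE-1 or LTR features beside it. Mid1, a ubiquitin ligase gene on the X chromosome, held 4 windows named G530011O06Rik with 3.06 to 18.3 RPKM at 24 h and 10.8 to 30.8 at 22 h (1.68 to 3.55-fold lower), 3 of them mostly unique.

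Higher at 24 h than at 22 h in the dorsal SCN were introns of Ntan1, an amidase of the N-degron pathway (38.4 and 13.98 RPKM, 2.75-fold, 1.87 to 4.10), and of Itgad, an integrin subunit gene (45.8 and 18.2 RPKM, 2.52-fold, 1.79 to 3.59). The Cartpt window above was the only other member at least 2-fold higher, and all 3 are short tandem arrays. The other 5 were Mir101c windows in the satellite-like start of chromosome 9, at 454 to 513 RPKM at 24 h and 399 to 444 at 22 h (1.14 to 1.17-fold higher). In the authors' deposited table the same 5 windows have log2 fold changes of -0.26 to -0.25, so their direction depends on the scaling.

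Against 26 h, 11 dorsal members were higher at 24 h and 21 lower. The whole list had 21.5% higher and 78.5% lower, and 21.5% and 68.4% were at least 2-fold higher and lower. Beyond 50 kb 6 were higher and 37 lower. These were the largest median folds among the 4 lists, 5.14 for the higher members (21.4 RPKM at 24 h, 4.16 at 26 h) and 9.53 for the lower ones (0.87 and 14.9 RPKM). The lower members had a median of 2 reads at 24 h, and 14 of the 21 held at most 3 reads there. The labels give 1 sample for dorsal SCN at 24 h. Mostly unique sequence made up 5 of the higher and 16 of the lower windows.

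Rcan1, an inhibitor of the phosphatase calcineurin, had an intronic window with 7.86 RPKM at 24 h against 0.35 at 26 h (22.7-fold higher, 3.58 to 944). A window 4.3 kb upstream of Twist2, a basic helix-loop-helix transcription factor, had 7.42 and 0.35 RPKM (21.4-fold higher, 3.35 to 895). Gria1, the GluA1 subunit of AMPA receptors, had 11.4 and 1.73 RPKM in an intronic short tandem repeat with no CpG (6.55-fold higher, 2.47 to 21.8). An intron of Lpar3, a lysophosphatidic acid receptor gene, had 21.4 and 4.16 RPKM (5.14-fold higher, 2.70 to 10.6). The promoter window of Sidt2 had 22.3 and 5.89 RPKM (3.78-fold higher, 2.15 to 6.98).

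Among the dorsal windows lower at 24 h than at 26 h, the Dpp9 intron had the largest ratio, 0.87 against 23.6 RPKM (27.0-fold lower, 7.19 to 227). An intergenic window 7.9 kb upstream of the olfactory receptor gene Olfr854 had 0.87 and 20.5 RPKM (23.4-fold lower, 6.20 to 198). An intron of Myo7a, an unconventional myosin of hair cells and photoreceptors, had a pair of windows at 0.87 RPKM at 24 h and 15.3 and 18.0 at 26 h (17.5-fold and 20.6-fold lower). The promoter window of Dpep1, a membrane dipeptidase gene, had 0.44 and 6.24 RPKM with 14 CpGs (14.3-fold lower, 2.26 to 596). A window over a start of Nbea, a neuronal membrane traffic protein gene, is named Mab21l1 and had 0 reads at 24 h and 6.24 RPKM at 26 h (at least 4.76-fold lower), with 7 CpGs and no repeated word.

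**Figure D4:**
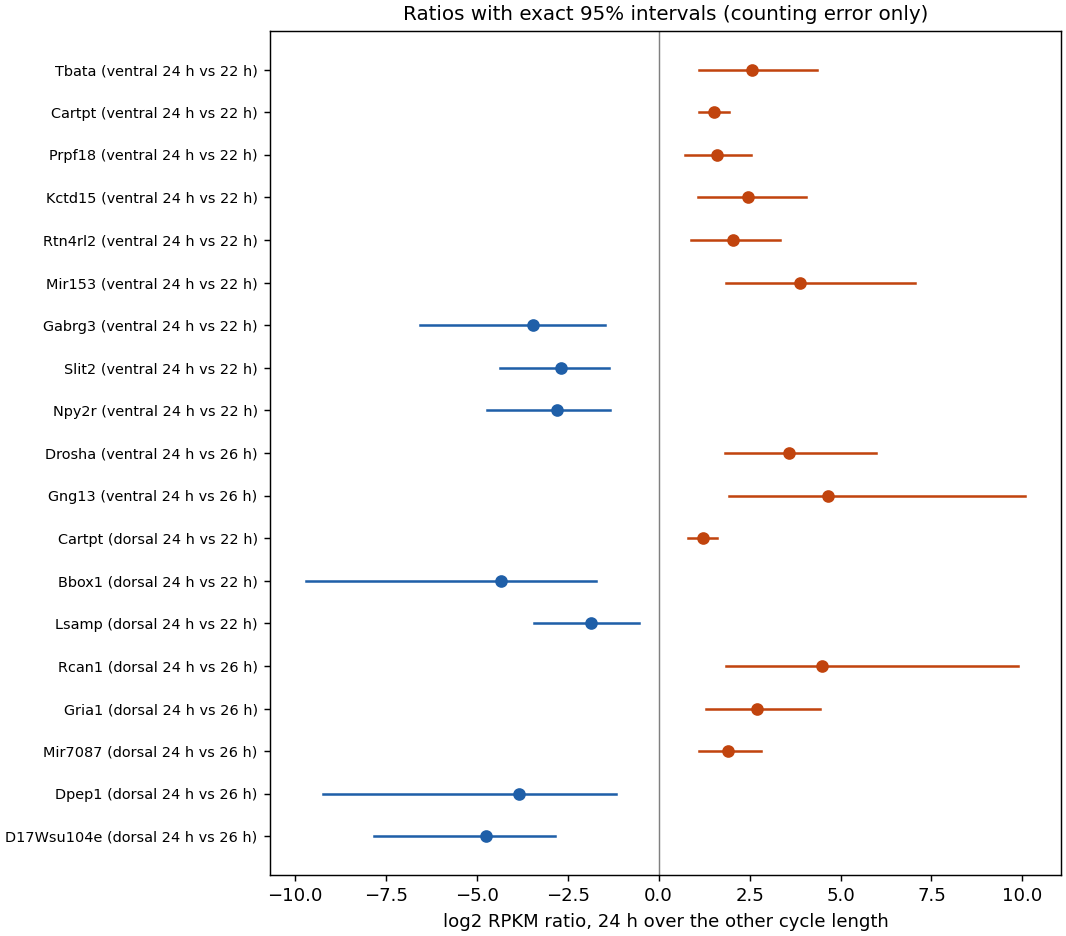
Log2 ratio of RPKM, 24 h over the other cycle length (horizontal), for 19 windows named in the text, each with its exact 95% interval from the recovered reads, red where higher and blue where lower at 24 h. No interval crosses 0, and the widest belong to windows with 1 read in the lower column, such as Rcan1, Bbox1 and Dpep1; the intervals do not cover the spread between mice.

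Windows listed in more than 1 comparison numbered 23, at 15 genes. The 470 member listings were 446 distinct windows, the 640 listings beyond 50 kb were 622, and all 1239 were 1181. Overlap by pair of lists was counted for the members only, so it is not read as a trait of windows near start sites. Both dorsal lists held 12 of the 23 windows (20.7% of the members against 22 h and 37.5% of those against 26 h), all lower at 24 h in both. The 2 comparisons share the 24 h column, so a low value there enters both. Over the 12 windows the medians at 24, 22 and 26 h were 1.31, 11.005 and 19.2 RPKM, and 11 of them were mostly unique. They included both windows of Dpp9 and both of Myo7a, and those named Olfr854, Gm13580, Gm17644, Cyr61, 4930529K09Rik and G530011O06Rik, besides 2 at Gm14496.

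The ventral lists shared 3 windows, all higher at 24 h and sharing the 24 h column. The Spata13 window had 10.7 RPKM at 24 h against 2.94 and 0.85 at 22 and 26 h. The Tmem121 window, a tandem repeat between genes, had 10.7 RPKM at 24 h, 0 reads at 22 h and 1.06 RPKM at 26 h. A window in an intron of Hsd17b11, a steroid dehydrogenase gene, named Hsd17b13, had 5.35 RPKM at 24 h, 0 reads at 22 h and 0.21 RPKM at 26 h. All 3 windows had their highest value at 24 h, in lists selected on these contrasts.

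Across the parts of the SCN, where no column is shared, 8 windows were in the ventral list against 26 h and the dorsal list against 22 h, and 1 was in the ventral list against 22 h and the dorsal list against 26 h. The last is the Sidt2 promoter window, 3.12-fold higher at 24 h in the ventral and 3.78-fold higher in the dorsal SCN. No window was in both lists against 22 h. The single window in both lists against 26 h, chr2:181747501-181748000 near Gm14496, had 155 RPKM at 24 h against 111 at 26 h in the ventral SCN but 85.1 and 103 in the dorsal SCN. It was the only shared window with opposite directions, and 6.60% of its words are unique.

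Of the 8 shared windows, 6 formed a block named Gad2, the gene of a GABA-synthesising enzyme. The block lies 32.1 to 34.6 kb upstream of the Gad2 start, in an intron of Myo3a, where GENCODE M1 places the noncoding genes Gm13339, Gm13340 and Gm13341. Windows of the block are counted among the promoter windows above because an annotated start lies within 1000 bp, not because they lie at the Gad2 start. In the ventral SCN the 6 windows had 14.9 to 46.3 RPKM at 24 h and 38.0 to 78.4 at 26 h (1.404 to 2.54-fold lower), while the authors' deposited table gives log2 fold changes of -1.98 to -1.09 for them, a larger difference. In the dorsal SCN they had 7.86 to 39.3 RPKM at 24 h and 18.5 to 58.7 at 22 h (1.49 to 2.52-fold lower). Between 28.3% and 66.8% of their words occur in the mitochondrial genome. The windows of the mitochondrial genome itself, left out above, were also lower at 24 h in the ventral list against 26 h: all 16 listed there had 73.8 to 213 RPKM at 24 h and 137 to 236 at 26 h (1.111 to 1.999-fold lower). The dorsal list against 22 h held 0 of them. The part of mitochondrial DNA in the Gad2 values was not tested.

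Genes from lists that fit the tissue named few of the windows. Of 413 genes in 11 lists (circadian clock, SCN neuropeptides and receptors, GABA signalling, glutamate signalling, ion channels, light input and second messengers, DNA methylation and chromatin, axon guidance, neural cell adhesion, SCN and hypothalamic transcription factors, imprinted genes), 9 named a window near a start. They named 21 windows, 3 higher and 18 lower at 24 h, of which 12 are the Gad2 block in its 2 lists. Among protein-coding genes of GENCODE M1, 9 of the 401 in these lists (2.24%) named a member, against 261 of all 22238 (1.17%). None of the genes in the circadian clock, ion channel and imprinted gene lists did. Of the 30 clock genes, 1 was named in the ventral list against 22 h by a window beyond 50 kb.

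By list, GABA signalling had Gabrg3 besides Gad2: an intron of this GABA-A receptor subunit gene had 0.76 RPKM at 24 h against 8.32 at 22 h in the ventral SCN (10.9-fold lower, 2.79 to 93.5). The neuropeptide list had Npy2r, a neuropeptide Y receptor gene, with 1.53 and 10.53 RPKM 46.2 kb upstream (6.88-fold lower, 2.50 to 26.4). Axon guidance had Slit2, a secreted repellent, with 1.91 and 12.2 RPKM 13.1 kb upstream (6.40-fold lower, 2.57 to 20.6). These 3 windows carried 20 to 30 CpGs, had at most 5.74% unique words and lay in or beside retrotransposon features. The others were Wapal (chromatin, 2 windows lower), Gli2 (transcription factors, higher), Gng13 (second messengers, higher), Gria1 (glutamate, higher) and Lsamp (adhesion, lower), each described above. The lists do not hold every gene of their kind: Cartpt and Pcdh8, described above, are in none of them. The same is true of some ion channel genes that name windows of the ventral list against 22 h. Of these, 4 were picked out after their values were seen. The windows of the potassium channel genes Kcnk5 (8.79 and 2.45 RPKM) and Kcnj5 (13.0 and 3.92 RPKM) were 3.59-fold and 3.32-fold higher at 24 h and mostly unique. Those of Kcnu1, a potassium channel gene (4.21 and 16.9 RPKM), and Trpm1, a cation channel gene (4.59 and 17.9 RPKM), were 4.02-fold and 3.89-fold lower and carried retrotransposon features. Catsper1, another cation channel gene outside the lists, also named a window lower at 24 h (authors' log2 fold change -2.90). The split by direction of the picked genes is therefore not that of all ion channel genes. All lists are small, and the counts allow no statement about a pathway.

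**Figure D5:**
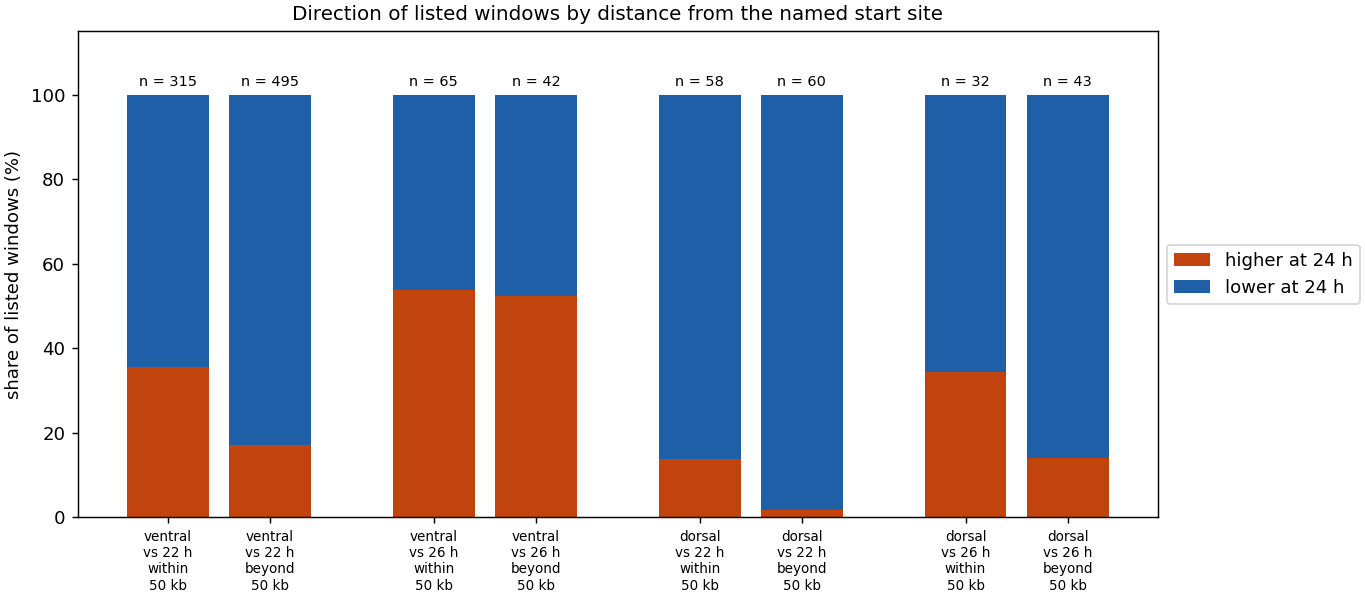
Share of listed windows (vertical, %) higher and lower at 24 h, for windows within and beyond 50 kb of the named start in each of the 4 lists, with the number of windows above each bar. The share higher at 24 h is 35.6% near and 17.2% far in the ventral list against 22 h and 53.8% near and 52.4% far in the ventral list against 26 h.

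Set side by side, the share of windows higher at 24 h near and far from start sites was 35.6% and 17.2% in the ventral list against 22 h, 53.8% and 52.4% in the ventral list against 26 h, 13.8% and 1.67% in the dorsal list against 22 h, and 34.4% and 13.95% in the dorsal list against 26 h. The last 2 lists rest on 9 and 17 higher windows in all. In the dorsal list against 22 h, 5 of the 8 higher members are the Mir101c windows, whose direction depends on the scaling. The near and far windows also differed in sequence. In the ventral list against 22 h, 26.3% and 9.09% were mostly unique, and 50.2% and 73.1% had retrotransposon features. The part of sequence in these shares was not tested. At the 50 kb limit, in the ventral list against 22 h, the windows just inside, at Cdk8 (49.5 kb, 13.8 and 4.41 RPKM) and Gm16404 (49.978 kb, 4.21 and 16.7 RPKM), were 3.12-fold higher and 3.96-fold lower. Those just outside, at Lmf1 (50.132 kb, 9.18 and 2.45 RPKM) and Epb4.1l2 (50.577 kb, 30.97 and 11.5 RPKM), were 3.75-fold and 2.69-fold higher. In the ventral list against 26 h those just inside, Slc22a12 and Zbtb10, were 12.02-fold and 9.02-fold higher, and those just outside, 4933402J10Rik and 1700095A21Rik, 2.53-fold and at least 3.14-fold lower. In both dorsal lists the 2 windows just inside were the Myo7a pair, lower at 24 h. Those just outside were Pebp1 (at least 3.74-fold lower) and Chodl (13.6-fold lower) against 22 h, and Knop1 (8.82-fold higher) and D16Ertd519e (5.36-fold lower) against 26 h.

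Depth limits many of these values. In 111 of the 470 listings the lower column held at most 3 reads, and the median of the lower column was 8 reads against 49 in the higher one. A ratio that rests on 1 read is bounded only loosely from above, as at Dpep1 (2.26 to 596). The intervals of 467 listings excluded a ratio of 1, in lists that the authors selected on the same contrasts.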

How the data were processed

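MeDIP-seq was made from 11 ventral or dorsal SCN samples. Per the submitters' processing notes, BWA and the mm9 build were used (no version named). The deposited columns that the authors named counts are treated as a score: they are not proportional to the reads recovered from the RPKM, and how they were made is not given. The authors' RPKM columns give 1 value per cycle length and window. The log2 fold change and unadjusted p-value in the authors' tables come from edgeR, per the file headers. How duplicates were combined and how windows were selected is not given in the sources used here. Columns of means, such as the 8 of the score, were not used. The ventral 26 h table repeated 3 intervals, counted once.

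Whole reads were recovered from the RPKM columns (all values within 0.01 RPKM of a whole multiple), which gave column depth and exact 95% intervals. Folds against 0 reads use a floor of 3 reads. Reads lack molecular identifiers, so intervals and floors cover counting error only. Gene positions came from GENCODE M1 on mm9: 378 of the 385 members whose named gene could be placed lay within 1000 bp of the distance the authors give. Retrotransposon features were a reverse transcriptase motif inside an open frame of 600 codons or more within 8000 bp, or 15-base words recurring at 190 to 225 bp over at least 30% of the window. Short tandem repeats had at least 30% of these words recurring within 100 bp. Computation used scipy 1.17.1, numba 0.67.0, pandas 2.3.3, matplotlib 3.10.9 and numpy 2.4.6 under Python 3.11.15, tested on simulated data.

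Named in the text are, per list and direction, windows among the 10 largest folds, windows within 1000 bp of a start of their named gene, genes of 11 lists, windows in more than 1 list and the 2 windows on each side of 50 kb. Other windows, such as the exons, promoters of differently named genes, windows of unique sequence and repeat blocks, were chosen after their values were seen. The members and lists were chosen with earlier results of these data known. No test between cycle lengths was made, because the tables hold no replicates. Alternatives were the authors' scaling, other distance limits, merged or mostly unique windows, other floors, a read minimum, other folds and other promoter limits.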

Additional observations from a re-analysis of the deposited data

Results flagged for a closer look

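A window near Gm14496, chr2:181747501-181748000, moved in opposite directions in the 2 parts of the SCN under the same contrast. The log2 ratio of RPKM, 24 h over 26 h, was 0.48 in the ventral and -0.27 in the dorsal SCN. With 1 column per group the difference was not tested. The neighbouring window in the dorsal lists reaches past the end of the chromosome and holds 87 bases.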

How the results depend on the processing

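Of 124 alternative values for the main counts and medians, 87 stayed within the limits set for a like result, 34 moved and 3 turned direction. The median log2 ratio turned to 1.85 with mostly unique windows (ventral, 22 h). In the ventral list against 26 h it turned to -0.11 with mostly unique windows. There it turned to -1.19 with the left-out genes and the mitochondrial windows kept in. In the dorsal list against 26 h it kept its sign but went from -2.29 to -0.72 with windows merged and to -3.25 with mostly unique windows, both within the limits set for a like result, which are wide for 32 windows. The cause was not tested.

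Fewer windows are counted by construction under nearer limits. At 10 kb the higher and lower windows were 30 and 38 (ventral, 22 h; median log2 ratio -1.47), 9 and 9 (ventral, 26 h), 3 and 12 (dorsal, 22 h) and 4 and 9 (dorsal, 26 h). At 25 kb the counts that moved were 71 higher and 125 lower (ventral, 22 h), 14 lower (ventral, 26 h), 31 lower (dorsal, 22 h) and 7 higher (dorsal, 26 h). With mostly unique windows they were 6 lower (ventral, 22 h), 9 higher and 11 lower (ventral, 26 h), 0 higher and 21 lower (dorsal, 22 h) and 5 higher (dorsal, 26 h). With windows merged, the ventral 26 h list had 22 higher and 17 lower, and with the left-out genes and mitochondrial windows kept in 139 lower. With the sign of the authors' log2 fold change, 3 dorsal windows were higher at 24 h against 22 h, and the median log2 value was -2.48. A fold of 4 was passed by 207 (ventral, 22 h), 15 (ventral, 26 h) and 26 (dorsal, 22 h) windows, and a fold of 1.5 by 54 (ventral, 26 h). Promoter windows in the ventral 22 h list numbered 26 within 2000 bp of any start. Within 1000 bp of the authors' own start there were 1, 2, 1 and 0 in the 4 lists.

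Among 117 named windows, 5 turned direction, all of them Mir101c windows of dorsal 24 h against 22 h: the authors' deposited table has log2 fold changes of -0.2623, -0.2622, -0.2559, -0.2472 and -0.2614, and the ratios of its columns named counts are -0.0558, -0.0556, -0.0493, -0.0406 and -0.0549. Another 8 fell outside their counting interval: all 6 Gad2 windows in the ventral list against 26 h, Cartpt in the ventral list against 22 h (1.52 to 1.06) and 4930467E23Rik in the ventral list against 26 h (-0.88 to -1.52), each given as log2 RPKM ratio and the authors' value. Over each list the median of the authors' log2 fold change minus the log2 RPKM ratio was 0.09, -0.53, -0.47 and -0.26.

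No paired analysis was possible because the tables hold 1 column per cycle length and no replicate columns to leave out or to block on.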
